A study of Homo sapiens with 4 samples.

Results

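The 10 genes described here are transcription factors, a transcriptional cofactor and a keratin of the trophoblast, the lineage that builds the fetal part of the placenta. They are *CDX2*, *GATA2*, *GATA3*, *TFAP2A*, *TFAP2C*, *ELF5*, *TP63*, *VGLL1*, *HAND1* and *KRT7*. These genes were chosen by name as known trophoblast genes, with earlier results of these data known. They make up 10 of the 62218 genes and 73 of the 242542 transcripts that could be given a gene symbol. The value of a gene is the count of its transcript with the largest mean count.

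The trophectoderm is the outer layer of the blastocyst. It gives rise to dividing cytotrophoblast, to the syncytiotrophoblast that secretes placental hormones, and to the invasive extravillous trophoblast. GATA2, GATA3, TFAP2A and TFAP2C are DNA-binding proteins that act together early in this lineage, while CDX2, ELF5 and TP63 are known from trophoblast stem cells and cytotrophoblast. Naïve hESCs resemble the epiblast before implantation and primed hESCs the epiblast after it, and naïve hESCs are known for the ease with which they can be turned into trophoblast in culture.

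The samples were H1, an established hESC line of wild-type genotype, in both states. Primed hESCs were kept in mTeSR1 on Matrigel at normal oxygen. The naïve hESCs were derived from the same H1 primed line and grown in the FINE condition, a medium with several kinase inhibitors (dasatinib, AZD5438, SB590885, PD0325901 and Y-27632) plus LIF, activin A and bFGF, under low oxygen. Total RNA was converted to cDNA and sequenced on a Nanopore PromethION, in 2 replicate libraries per state. Medium, oxygen and culture history differed together between the states and cannot be told apart, and a single line was used. The sources do not say that the replicates came from separate cultures, so the p-values measure only the spread between these libraries.

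The deposited values are counts of alignments over the whole span of a transcript, introns included and strand ignored. Library totals lay between 129276054 and 161548901 counts over all transcripts, where an alignment counts for every transcript it overlaps. With 1 transcript per gene the totals were 23542380 to 30978794. Levels are given as CPM, gene counts scaled to a common library size with edgeR's TMM method. The scaled library sizes behind the CPM were 23044849 to 30632534. Where no alignment was counted, up to 3 remain possible, which is 0.0979 to 0.130 CPM depending on the library, and this limit covers counting error only. *POU5F1*, the core pluripotency factor that should be present in any hESC, had 7606 and 6709 naïve and 8689 and 8520 primed counts. Of 8 naïve state markers, 8 were called higher in the naïve libraries, and of 8 primed state markers, 8 were called higher in the primed libraries. The first count was 7 with library size in place of TMM and 7 without primed replicate 1, since *KLF17* had 2200 and 2423 naïve against 2083 and 2236 primed counts and its log2 fold change of 0.41 turned to -0.23 with library size. Of the primed markers, *THY1* had 0 naïve against 2039 and 1888 primed counts, *SFRP2* 0 against 1526 and 1645, and *DUSP6* 1 and 2 against 320 and 285. The states differed widely, with 32.6% of the 27632 genes tested called higher in naïve hESCs and 37.4% called higher in primed hESCs. In bulk samples such as these, fewer cells of a type and less RNA per cell cannot be told apart.

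Promoter sequences, from RefSeq (GRCh38.p14), were used for 8 of the 10 genes. Those of *TFAP2C* and *KRT7* were not used here. The windows of the 4 genes with the highest naïve levels per length are printed with that of *CDX2*, the gene at the detection limit, so that their sequence can be read beside the counts. Each holds 300 bases, 5′ to 3′ on the strand of the gene. Capitals mark exact matches on either strand to any of 5 motifs. The AP-2 motif was searched as GCCNNNGGC, which reads the same on both strands. The letters searched for the GATA motif were AGATAA. Those searched for the TEAD motif, the site of the partners of VGLL1, were GGAATG. The letters of the core promoter element known as the TATA box were TATAAA, and the GC box, a common element of CpG-rich promoters, was searched as GGGCGG. Coordinates are those of the window on the genome.
GATA2 promoter, chr3:128493152-128493451: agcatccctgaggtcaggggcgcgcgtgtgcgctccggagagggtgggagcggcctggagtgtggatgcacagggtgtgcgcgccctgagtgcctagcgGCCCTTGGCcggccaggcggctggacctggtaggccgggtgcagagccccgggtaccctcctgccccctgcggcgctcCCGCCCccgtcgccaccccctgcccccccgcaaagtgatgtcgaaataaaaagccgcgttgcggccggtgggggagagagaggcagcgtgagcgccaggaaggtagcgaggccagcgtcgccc
GATA3 promoter, chr10:8054438-8054737: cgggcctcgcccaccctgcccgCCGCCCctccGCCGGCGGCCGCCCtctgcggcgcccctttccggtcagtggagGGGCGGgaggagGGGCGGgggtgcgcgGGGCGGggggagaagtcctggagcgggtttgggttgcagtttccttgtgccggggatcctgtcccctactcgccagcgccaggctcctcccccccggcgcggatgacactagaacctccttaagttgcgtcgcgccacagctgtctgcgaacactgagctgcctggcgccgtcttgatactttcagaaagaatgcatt
TFAP2A promoter, chr6:10419610-10419909: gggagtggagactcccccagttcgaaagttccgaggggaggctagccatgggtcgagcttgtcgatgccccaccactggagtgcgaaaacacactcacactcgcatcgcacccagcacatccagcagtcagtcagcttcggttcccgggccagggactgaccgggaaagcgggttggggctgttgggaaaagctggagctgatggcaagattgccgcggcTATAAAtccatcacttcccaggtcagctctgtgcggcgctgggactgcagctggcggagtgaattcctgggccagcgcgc
VGLL1 promoter, chrX:136531965-136532264: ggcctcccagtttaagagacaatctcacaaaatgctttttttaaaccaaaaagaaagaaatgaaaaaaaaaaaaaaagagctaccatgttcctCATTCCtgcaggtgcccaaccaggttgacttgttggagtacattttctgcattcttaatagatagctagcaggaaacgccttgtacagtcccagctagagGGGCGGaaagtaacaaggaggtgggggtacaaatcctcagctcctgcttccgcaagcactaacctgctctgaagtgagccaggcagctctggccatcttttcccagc
CDX2 promoter, chr13:27969266-27969565: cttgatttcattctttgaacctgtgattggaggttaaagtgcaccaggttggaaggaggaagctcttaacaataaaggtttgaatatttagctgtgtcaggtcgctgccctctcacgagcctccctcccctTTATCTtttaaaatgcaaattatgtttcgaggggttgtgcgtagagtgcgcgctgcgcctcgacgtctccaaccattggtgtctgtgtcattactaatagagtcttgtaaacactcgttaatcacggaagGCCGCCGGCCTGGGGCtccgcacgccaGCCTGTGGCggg

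Among all 35116 promoters of the same length, 23.2% held the AP-2 letters, 10.3% the GATA letters, 14.0% the TEAD letters, 11.5% the TATA letters and 45.0% the GC box letters. The *GATA2* window had 1 AP-2 match and 1 GC box. The *GATA3* window had 1 AP-2 match and 5 GC boxes, of which 1 overlaps the AP-2 match. *TFAP2A* had a TATA box whose first base lies 30 bases before the start site, and none of the other letters. *VGLL1*, whose protein binds TEAD factors, had 1 TEAD match, 157 bases before the start site, and 1 GC box. *CDX2* had 3 AP-2 matches just after its start site, the first 2 overlapping, and 1 GATA match. In the other windows, *HAND1* held 2 AP-2 matches and 3 GC boxes, *TP63* 1 TATA match, and *ELF5* none of these letters. The *ELF5* window surrounds a start 2070 bases from that of ELF5-201, the *ELF5* transcript counted here. The starts of ELF5-202 and ELF5-206, which had the same counts as ELF5-201, lie inside the window. CpG content also varied, from 29 CpG in each of the *GATA2* and *GATA3* windows to 3 in that of *VGLL1* and 2 in that of *ELF5*, beside a median of 14 over all promoters. These matches describe letters in a window and not bound sites.

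Of the 10 genes, 9 passed the filter of at least 10 counts in at least 2 libraries, and 8 of these 9 were called higher in naïve hESCs by the quasi-likelihood test of edgeR, with p-values adjusted by the Benjamini-Hochberg method over every gene tested. The background is 32.6% of all genes tested in this direction, 37.4% in the other and 70.0% in either. For the same 8 genes, both naïve libraries lay above both primed libraries, as they did for 39.6% of all genes tested, while 44.8% had both naïve libraries below. None was called higher in primed hESCs, with 0 also at an unadjusted p under 0.05 in that direction and 0 with DESeq2, but 1, *KRT7*, under 4 of the alternatives (given with that gene). The median log2 fold change of the 9 genes was 4.91, beside -0.08 over all genes tested. *KRT7* was not called, and *CDX2* was too low to test.

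**Figure D1:**
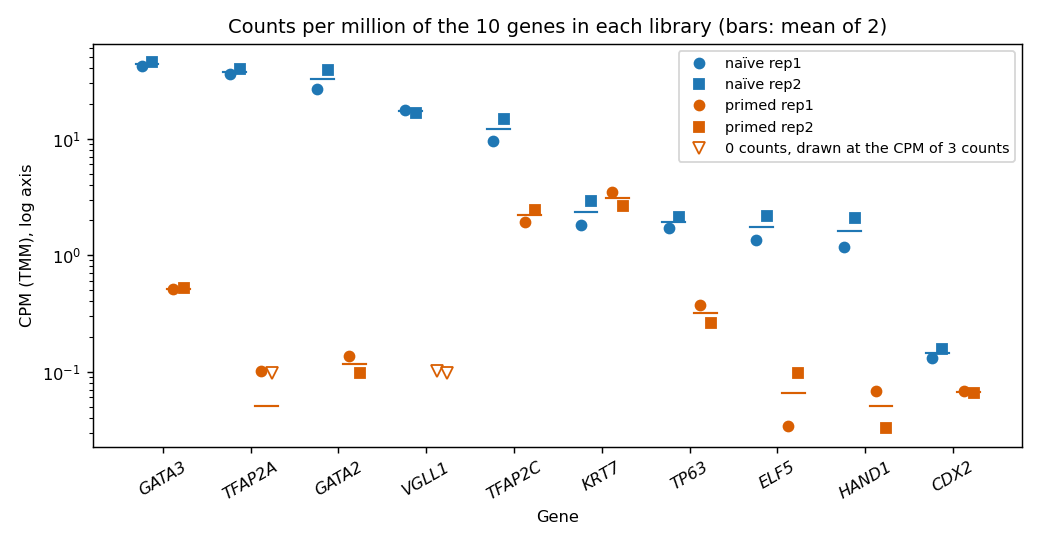
Level of each of the 10 genes in each library, in CPM on a log axis, with naïve libraries in blue, primed libraries in orange and the mean of the 2 libraries as a bar. Open triangles stand for 0 counts and are drawn at the CPM of 3 counts. The 4 genes on the left lie above 15 CPM in both naïve libraries and under 0.6 CPM in both primed libraries, and only *KRT7* has groups that overlap.

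The GATA factors bind GATA motifs and are among the first trophectoderm regulators. *GATA3* (GATA3-202, chr10:8054688-8075198, + strand, GRCh38) had 976 and 1151 naïve and 15 and 16 primed counts. This corresponds to 43.8 ± 1.99 CPM (SD, n = 2) against 0.516 ± 0.00869 CPM (SD, n = 2). The groups lay far apart and the replicates of each state were close. The log2 fold change was 6.39 (SE 0.226, edgeR adjusted p = 4.67e-27), and no other annotated gene overlaps the span. *GATA3* also stood at the 89.5 percentile of all genes tested by its naïve CPM, the highest of the 10.

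*GATA2* (GATA2-201, chr3:128479427-128493201, - strand) had 619 and 985 naïve against 4 and 3 primed counts, that is 32.8 ± 8.33 CPM (SD, n = 2) against 0.117 ± 0.0269 CPM (SD, n = 2). The primed libraries were near the limit of 3 counts, and naïve replicate 2 was 1.44 times as high as replicate 1. The log2 fold change was 8.08 (SE 0.304, edgeR adjusted p = 4.32e-26), and the ratio of the summed rates was 283 with a 95% counting interval of 137 to 706. The antisense gene *GATA2-AS1* crosses the span, with a mean count of 6.70% of the *GATA2* count. Of 4 relatives of the pair, *GATA1* and *GATA5* were too low to test and *GATA4* was not called, while *GATA6*, a hypoblast factor, had 77 and 99 naïve against 16 and 37 primed counts (log2 fold change 2.03, SE 0.302, edgeR adjusted p = 1.33e-07, and 2.72 without primed replicate 2).

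The AP-2 factors *TFAP2A* and *TFAP2C* were both higher in naïve hESCs but differed in their primed levels. *TFAP2A* (TFAP2A-201, chr6:10397872-10419638, - strand) had 823 and 1008 naïve and 3 and 0 primed counts. *TFAP2C* (TFAP2C-201, chr20:56629306-56639283, + strand), which is known to act in naïve pluripotency as well as in trophoblast, had 221 and 372 naïve and 57 and 75 primed counts. The groups did not overlap for either gene, and only *TFAP2C* was clearly above the detection limit in primed hESCs.

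For *TFAP2A* the log2 fold change was 9.43 (SE 0.334, edgeR adjusted p = 4.66e-27). Since the primed libraries held 3 and 0 counts, this value was 12.96 without primed replicate 1 and 8.46 without primed replicate 2. Its ratio of summed rates was 755, with a 95% counting interval of 258 to 3665. Because strand was ignored, reads of the antisense genes inside its span enter its count. *TFAP2A-AS1* had 584, 607, 1 and 0 counts in naïve replicates 1 and 2 and primed replicates 1 and 2, which is 65.0% of the mean count of *TFAP2A*, and *TFAP2A-AS2* had 546, 596, 3 and 0, which is 62.4%. Reads of the gene and its antisense partners cannot be told apart there. A transcript of *TFAP2A* free of any other gene, TFAP2A-214 (chr6:10418189-10419623), had 180 and 203 naïve counts and 0 in both primed libraries, which is at least 78.9-fold higher with a limit of 3 counts per primed library.

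For *TFAP2C* the level was 12.1 ± 3.54 CPM (SD, n = 2) in naïve and 2.19 ± 0.361 CPM (SD, n = 2) in primed hESCs. The log2 fold change was 2.46 (SE 0.218, edgeR adjusted p = 2.20e-13), the smallest of the 8 that were called. Among the other AP-2 genes, *TFAP2B*, named after its values were seen, had 22 counts in each naïve library and 0 in the primed libraries, which is at least 9.09-fold higher.

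*VGLL1* encodes a cofactor that binds TEAD proteins through the same surface as YAP1 and is a known marker of human trophoblast. VGLL1-201 (chrX:136532215-136556799, + strand) had 402 and 426 naïve counts, and none was seen in either primed library. The naïve level was 17.1 ± 0.516 CPM (SD, n = 2), and with a limit of 3 counts per primed library this is at least 171-fold higher. The gene was called by edgeR's quasi-likelihood test (adjusted p = 3.36e-24), and its fitted fold change depends on the prior count and is not a bound. All 4 annotated *VGLL1* transcripts had 0 counts in both primed libraries.

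The TEAD genes examined, and the genes of the other TEAD cofactors YAP1 and TAZ, had counts in both states. *TEAD1*, *TEAD3*, *TEAD4*, *YAP1* and *WWTR1* (the gene of TAZ) are given here after their values were seen. *TEAD4*, the TEAD factor best known from trophectoderm, had 463 and 439 naïve and 378 and 409 primed counts, and its log2 fold change of 0.51 (SE 0.159, edgeR adjusted p = 0.00462) turned to -0.13 when library size replaced TMM. *TEAD3* had 355 and 529 against 149 and 162 counts (log2 fold change 1.80, SE 0.180), and *TEAD1* 766 and 1210 against 541 and 726 (0.94, SE 0.164). Neither *YAP1* (log2 fold change 0.12, SE 0.164) nor *WWTR1* (0.01, SE 0.164) was called. Among the relatives of *VGLL1*, *VGLL3*, also named after its values were seen, went the other way. It had 6 and 9 naïve against 46 and 55 primed counts (log2 fold change -2.43, SE 0.399, edgeR adjusted p = 9.70e-07). *VGLL4* was called higher in naïve hESCs with TMM, with 374 and 473 against 338 and 425 counts (log2 fold change 0.46, SE 0.162, edgeR adjusted p = 0.0121). *VGLL2* had 0 counts in every library.

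*HAND1*, a basic helix-loop-helix factor of giant cells, extraembryonic mesoderm and heart, and *ELF5*, an ETS factor of trophoblast stem cells, were low in both states. HAND1-201 (chr5:154474972-154478227, - strand) had 27 and 53 naïve and 2 and 1 primed counts. ELF5-201 (chr11:34478791-34513794, - strand) had 31 and 55 naïve and 1 and 3 primed counts. For both genes the naïve libraries lay above the primed ones, which were at or under the limit of 3 counts.

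The ratio of summed rates was 33.0 for *HAND1* (95% counting interval 10.9 to 163) and 26.6 for *ELF5* (10.02 to 99.8). The log2 fold changes were 4.91 (SE 0.573, edgeR adjusted p = 4.87e-10) and 4.63 (SE 0.534, edgeR adjusted p = 3.54e-10), the latter 5.51 without primed replicate 2. The naïve levels were 1.63 ± 0.642 CPM (SD, n = 2) and 1.75 ± 0.575 CPM (SD, n = 2), so that both calls rest on few alignments. The epithelial ETS factor *ELF3*, a relative of *ELF5*, was far more abundant, with 1396 and 1338 naïve against 166 and 158 primed counts (log2 fold change 3.39, SE 0.169, edgeR adjusted p = 1.26e-21).

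*TP63* encodes p63, a p53 relative that marks epithelial progenitors and cytotrophoblast. Its long forms start at an upstream promoter and carry the transactivation domain, while the short ΔN forms, which are the ones of cytotrophoblast, start at an inner promoter. TP63-201 (chr3:189631389-189897276, + strand), a long form whose span covers the gene, had 39 and 54 naïve and 11 and 8 primed counts, or 1.91 ± 0.302 CPM (SD, n = 2) against 0.318 ± 0.0798 CPM (SD, n = 2). The groups did not overlap, and the log2 fold change was 2.58 (SE 0.381, edgeR adjusted p = 1.21e-07).

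The counts lay on different stretches of *TP63* in the 2 states. TP63-203 starts at the inner promoter and ends where TP63-201 ends, so subtracting its counts leaves the alignments confined to the 158270 bases before the inner start. In the naïve libraries these were 1 of 39 and 1 of 54 counts, or 2.56% and 1.85%. In the primed libraries they were 7 of 11 and 5 of 8, or 63.6% and 62.5%. The 95% Wilson intervals ran up to 13.2% in the naïve libraries and from 30.6% in the primed libraries, so the intervals of the states did not overlap. These shares are a description of few alignments, and the stretch was chosen after its values were seen.

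Over the span of TP63-203 there were 38 and 53 naïve and 4 and 3 primed counts, a ratio of 16.1 with a 95% counting interval of 7.50 to 41.1. Alignments of long forms that reach past the inner start are counted there too, and introns are included. These counts therefore do not tell the long forms from the short ones. The short upstream form TP63-214 (chr3:189631416-189738896) had 1 and 0 naïve and 6 and 5 primed counts, a ratio of 0.112 with an interval of 0.00261 to 0.774. The test of isoform usage, which TP63-214 was too low to enter, did not call any of the 13 *TP63* transcripts tested. Its lowest adjusted p was 0.848 for TP63-204. That test uses the counts themselves and treats overlapping spans as separate isoforms. The exonic length enters only the isoform fraction. The related gene *TP73* was higher in primed hESCs, with 11 and 8 naïve against 100 and 92 primed counts (log2 fold change -3.01, SE 0.346, edgeR adjusted p = 3.30e-10).

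**Figure D2:**
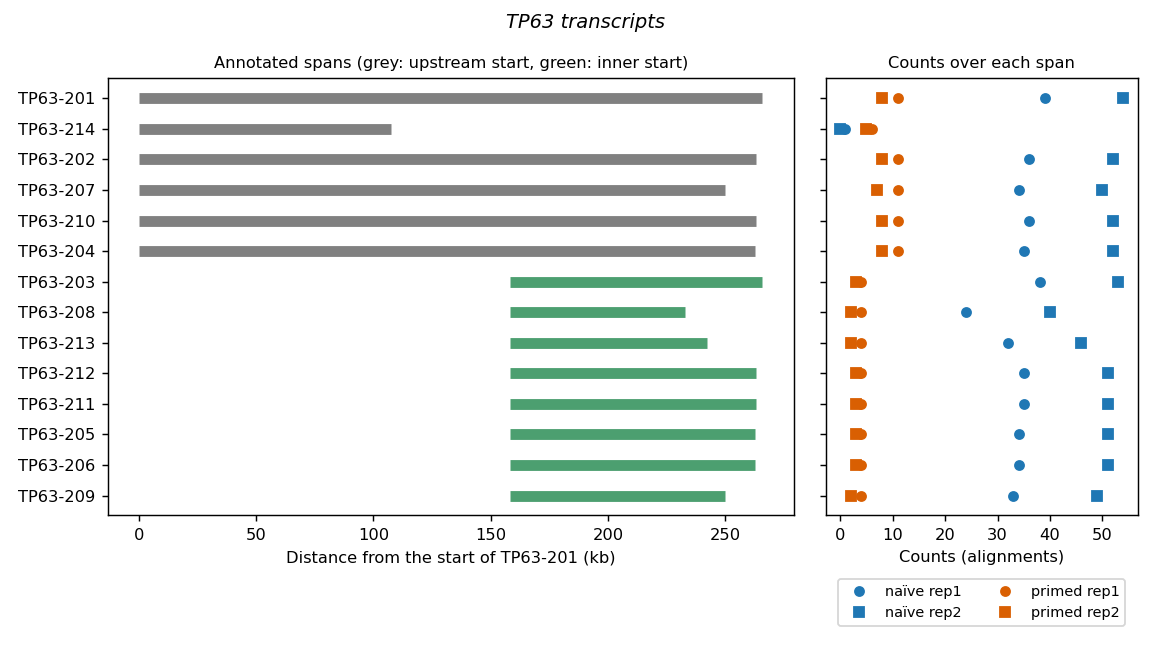
Annotated spans of the 14 *TP63* transcripts, as distance in kb from the start of TP63-201 (left), and the counts over each span in each library (right, naïve in blue and primed in orange). Over the 8 spans from the inner start (green) the primed libraries have 4 counts or fewer, whereas over TP63-214, which ends before the inner start, they have 6 and 5 counts and the naïve libraries 1 and 0.

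*CDX2*, the homeobox factor that in mouse specifies trophectoderm, was at the detection limit in both states. CDX2-201 (chr13:27960918-27969315, - strand) had 3 and 4 naïve and 2 and 2 primed counts. It did not pass the filter, no fold change is given, and a difference was not detectable at this depth. Its relatives, named after their values were seen, went in opposite directions. *CDX1* had 20 and 31 naïve against 1 and 0 primed counts (log2 fold change 5.63, SE 0.733, edgeR adjusted p = 7.10e-09), with a log2 fold change of 7.80 without primed replicate 1 and 4.76 without primed replicate 2. *CDX4* had 3 and 2 naïve against 15 and 15 primed counts (log2 fold change -2.23, SE 0.604, edgeR adjusted p = 0.00123), a call that DESeq2 did not make (adjusted p = 0.0659).

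*KRT7* encodes keratin 7, a standard marker of human trophoblast and of simple epithelia. KRT7-201 (chr12:52233243-52248921, + strand) had 42 and 74 naïve and 103 and 81 primed counts. After scaling this was 1.82 and 2.90 CPM against 3.50 and 2.64 CPM, and the groups overlapped. The log2 fold change was -0.37 (SE 0.261, edgeR adjusted p = 0.206), which does not show that the states were alike.

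The call for *KRT7* depended on the processing, and every alternative that changed it placed the gene higher in primed hESCs. The log2 fold change was -1.003 with library size in place of TMM (edgeR adjusted p = 0.00263) and -0.68 with counts summed over its transcripts (adjusted p = 0.0462). Without naïve replicate 2 it was -0.75 (adjusted p = 0.0370). With KRT7-208, a transcript that overlaps no other gene and had 24 and 47 naïve against 93 and 73 primed counts, it was -0.94 (adjusted p = 0.00494).

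The gene *KRT7-AS* lies inside the *KRT7* span on the other strand. Its 23 and 51 naïve and 92 and 68 primed counts equal 78.0% of the mean count of *KRT7*, and the reads of the pair cannot be told apart. The alignments were also spread differently along *KRT7*. Outside the last 1264 bases, the span of KRT7-209 and a stretch chosen after its values were seen, lay 18 of 42 and 27 of 74 naïve counts (42.9% and 36.5%) but 10 of 103 and 8 of 81 primed counts (9.71% and 9.88%). The Wilson intervals ran from 26.4% in the naïve libraries and up to 18.3% in the primed libraries. Not every stretch separated the states, since outside KRT7-204 lay 28.6% and 33.8% of the naïve and 22.3% and 29.6% of the primed counts, with intervals that overlapped. For *TFAP2C*, which has 2 annotated transcripts, the share outside the inner one was 59.7% and 50.0% for naïve and 43.9% and 56.0% for primed libraries, with intervals that overlapped.

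**Figure D3:**
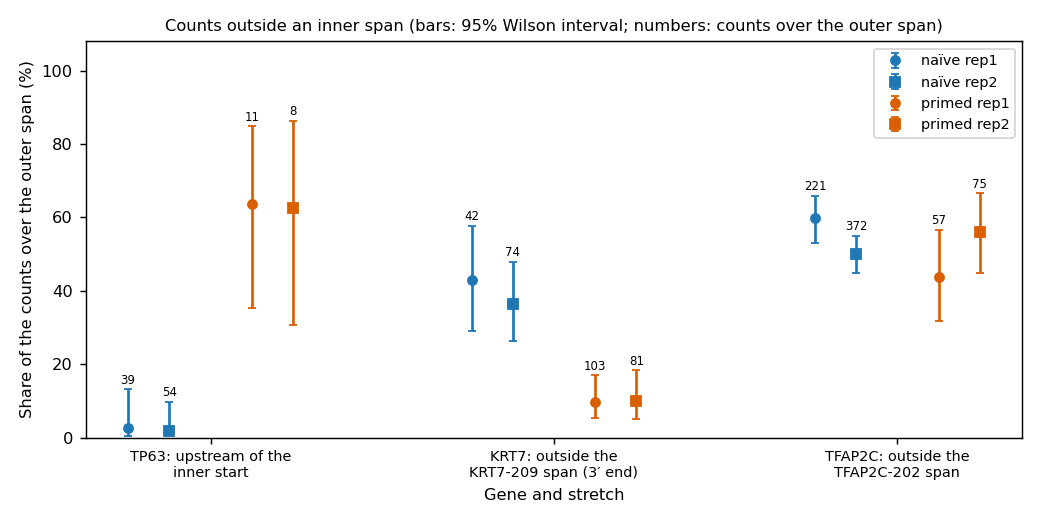
Share, in percent, of the counts over the outer transcript span that lie outside an inner span, for *TP63* (upstream of the inner start), *KRT7* (outside the last 1264 bases) and *TFAP2C* (outside TFAP2C-202). Points are libraries, bars are 95% Wilson intervals and the numbers above them are the counts over the outer span. The naïve share is under 3% and the primed share above 60% for *TP63*, the naïve share is the higher one for *KRT7*, and the intervals overlap for *TFAP2C*.

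The other keratins of the gene lists that were tested, 5 in number, were called higher in naïve hESCs, beside 32.6% of all genes tested. *KRT5* and *KRT14* were too low to test. *KRT8* had 24486 and 24846 naïve against 6135 and 5769 primed counts (log2 fold change 2.36, SE 0.147, edgeR adjusted p = 2.74e-18). Its partner *KRT18* (log2 fold change 2.06, SE 0.145) and *KRT19* (1.80, SE 0.149), both named after their values were seen, were also called higher in naïve hESCs. *KRT17* had 130 and 102 against 9 and 9 counts (log2 fold change 3.98, SE 0.337, edgeR adjusted p = 5.98e-14). *KRT23*, from the list of trophoblast markers and named after its values were seen, had 349 and 391 naïve against 1 and 0 primed counts (log2 fold change 9.49, SE 0.415, edgeR adjusted p = 1.12e-23), with a log2 fold change of 11.65 without primed replicate 1 and 8.62 without primed replicate 2.

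Compared per length of exonic sequence, the naïve levels of the 10 genes spanned a wide range. *TFAP2A* was first, with 17.5 and 19.4 CPM per kb in naïve replicates 1 and 2. It was followed by *VGLL1* (15.2 and 14.6), *GATA3* (13.7 and 14.6), *GATA2* (7.94 and 11.4) and *TFAP2C* (3.35 and 5.10). *KRT7* (1.12 and 1.79), *HAND1* (0.689 and 1.22), *ELF5* (0.581 and 0.931), *TP63* (0.342 and 0.429) and *CDX2* (0.0378 and 0.0455) were lower. The replicate ranges of *VGLL1* and *GATA3*, of *KRT7* and *HAND1*, and of *HAND1* and *ELF5* overlapped, so the order within these pairs is not resolved. In the primed libraries the order was different, with *KRT7* (2.16 and 1.63 CPM per kb) and *TFAP2C* (0.677 and 0.855) at the top and each of the other 8 genes under 0.2 CPM per kb. The counts include introns and antisense reads, which the exonic length does not account for.

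**Figure D4:**
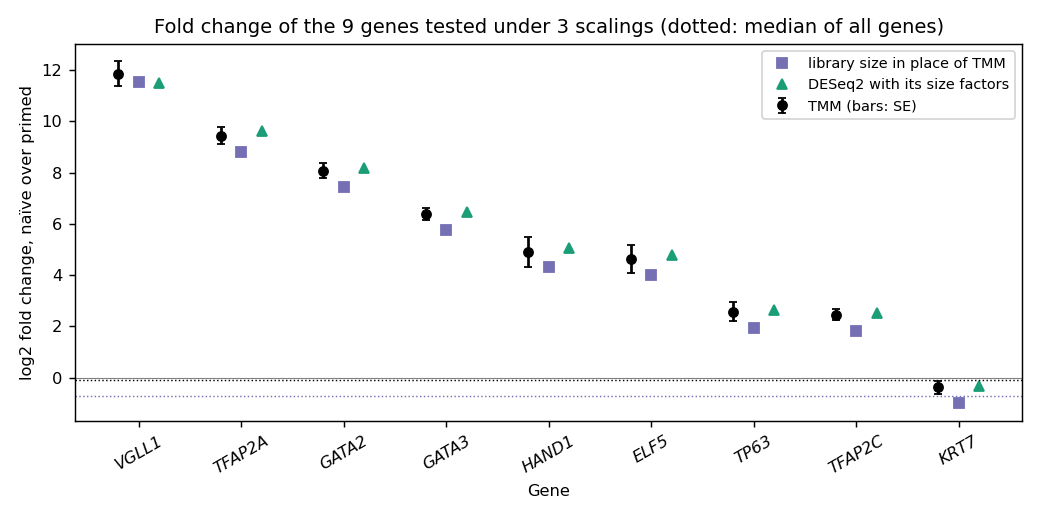
Log2 fold change, naïve over primed, of the 9 genes tested, with TMM (black, bars are SE), library size (purple) and DESeq2 size factors (green). *VGLL1*, with 0 primed counts, is drawn at its fitted value, which depends on the prior count and is not a bound. Dotted lines are the medians of all genes tested, -0.08 with TMM and -0.72 with library size. The order of the genes is nearly the same under each scaling, 8 of them lie above 1 under all of them, and *KRT7* is the one below 0.

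Changing the scaling moved all genes together. With library size in place of TMM the median over all tested genes went from -0.08 to -0.72 (log2 fold change), and the split of calls from 9007 higher and 10327 lower in naïve hESCs to 4503 higher and 15540 lower. With DESeq2 it was 8178 higher and 8034 lower. The same 8 genes of the 10 were called higher in naïve hESCs under each of these.

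The naïve libraries were not equal in these genes. In CPM, naïve replicate 2 exceeded replicate 1 for 8 of the 9 genes tested, by 1.07 times for *GATA3*, 1.11 times for *TFAP2A*, 1.25 times for *TP63*, 1.44 times for *GATA2*, 1.52 times for *TFAP2C*, 1.59 times for *KRT7*, 1.60 times for *ELF5* and 1.77 times for *HAND1*. *VGLL1* was the exception at 0.958. Replicate 2 was the higher one for 49.4% of all genes tested with counts in both naïve libraries. The median ratio of the 9 genes was 1.44, beside 0.997 over all genes tested with counts in both naïve libraries. The ratio reached 1.5 for 4 of the 9 genes (44.4%), beside 11.3% of all those genes and 5.92% of those with 20 to 2000 counts on average in the naïve libraries. By gene list, replicate 2 was higher for 11 of 17 other trophoblast factors and 15 of 24 trophoblast markers. It was higher for 6 of 6 germ layer and hypoblast markers, 5 of 6 primed and 1 of 8 naïve state markers. Since there are 2 naïve libraries, this is a description with no test.

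Whether the transcripts of a gene were used in other proportions was tested over 159577 isoforms by edgeR's diffSpliceDGE, with a call at an adjusted p under 0.05 and an isoform fraction difference beyond 0.1. Of all isoforms tested, 0.556% were called. Of 68 isoforms of 8 of the genes, 0 were called and 0 had an unadjusted p under 0.05. For 23 of the 68, 19 of *TFAP2A* and 4 of *VGLL1*, no fraction could be formed, because a primed library had no count on the gene. These 23 could therefore not be called. The isoforms of *GATA2* and *ELF5* had 4 counts or fewer in each primed library, which leaves little to test. *CDX2* and *HAND1*, the latter with a single transcript, did not enter.

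Most other trophoblast genes tested were also higher in naïve hESCs. For this list and those below, the background is 32.6% of all genes tested called higher in naïve hESCs and 37.4% in primed hESCs. Of 18 other trophoblast transcription factors and cofactors, 17 were tested, 14 were called higher in naïve hESCs, none higher in primed hESCs and 3 were not called, with a median log2 fold change of 3.05. *MSX2*, a homeobox factor, had 1237 and 1555 naïve against 16 and 20 primed counts (log2 fold change 6.57, SE 0.222, edgeR adjusted p = 1.00e-27). *GCM1*, the regulator of syncytiotrophoblast formation, had 284 and 309 against 1 and 3. *TBX3* had 158 and 228 against 1 and 3, and *NR2F2* 97 and 144 against 2 and 2. The 3 not called were *YAP1*, *WWTR1* and *EOMES*, and *ASCL2* was too low to test.

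Of 24 structural, surface and secreted trophoblast markers, 24 were tested, 21 were called higher in naïve hESCs, 1 higher in primed hESCs and 2 were not called. Their median log2 fold change was 3.63, or 3.24 with 4 genes that had 0 primed counts set at their bound. *CGA*, the alpha subunit of chorionic gonadotropin, had 35747 and 47550 naïve and 0 and 1 primed counts. *S100P* had 8234 and 9529 naïve and 0 primed counts, at least 3657-fold higher. *HSD3B1*, a placental steroid enzyme, was at least 118-fold higher (283 and 286 against 0), and *MUC15* at least 56.9-fold higher (124 and 153 against 0). The gene called higher in primed hESCs was the integrin *ITGA6* and those not called were *ENPEP* and *EPCAM*. The summed level of the list came to 4405 and 4600 CPM for naïve and 485 and 453 CPM for primed hESCs. These marker genes include ones of syncytiotrophoblast, and whether a differentiated subset of cells in the naïve cultures contributes to the counts of the 10 genes was not tested.

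**Figure D5:**
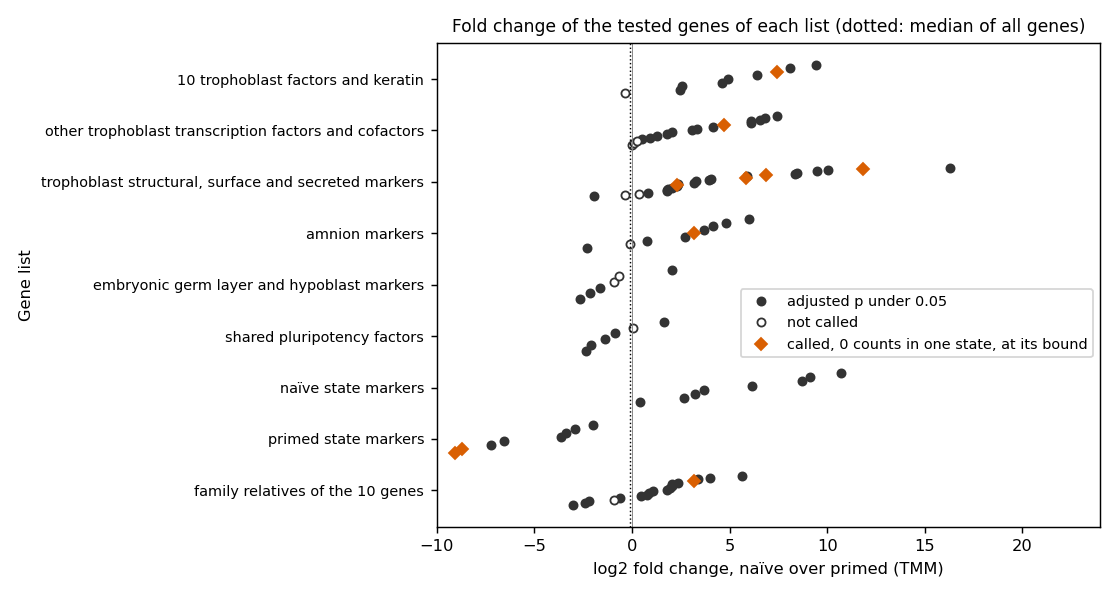
Log2 fold change, naïve over primed with TMM, of every tested gene in each list. Filled points were called, open points were not, diamonds are genes with 0 counts in one state set at their bound, and the dotted line is the median of all genes. The trophoblast and amnion lists lie mostly to the right of 0, the germ layer list mostly to the left.

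Markers of the amnion share several of these factors. Of 9, 7 were called higher in naïve hESCs, 1 higher in primed hESCs (*POSTN*) and 1 was not called (*BAMBI*), with a median log2 fold change of 3.70. *POSTN*, with 2 and 2 naïve against 12 and 14 primed counts, was not called by DESeq2 (adjusted p = 0.0762), which left 0 amnion markers higher in primed hESCs, and 2 were higher there with library size. Their summed level was low, 28.4 and 26.5 CPM for naïve and 7.72 and 6.66 CPM for primed hESCs. *IGFBP3* had 244 and 270 against 47 and 49 counts (log2 fold change 2.72, SE 0.216, edgeR adjusted p = 8.01e-15). *GABRP* had 154 and 146 against 132 and 88 (log2 fold change 0.75, edgeR adjusted p = 0.00237), and its call was lost with library size (0.11, adjusted p = 0.670) and without primed replicate 2 (0.47, adjusted p = 0.0993).

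Of 11 germ layer and hypoblast markers, 5 were too low to test. Of the 6 tested, *GATA6* was higher in naïve hESCs, 3 were higher in primed hESCs and 2 were not called, with a median log2 fold change of -1.28. The number higher in primed hESCs was 5 with library size and 2 with DESeq2 and without primed replicate 1, where *PAX6* (3 and 4 naïve against 18 and 10 primed counts) was not called (adjusted p = 0.158 and 0.225). *NES*, an intermediate filament gene of neural progenitors, had 41 and 54 naïve against 376 and 381 primed counts (log2 fold change -2.69, SE 0.210, edgeR adjusted p = 4.57e-15). The summed level of this list came to 6.03 and 7.57 CPM for naïve and 17.0 and 16.7 CPM for primed hESCs. *SOX1* and *FOXA2*, both too low to test, had 0 counts in both naïve libraries. Their primed counts were 0 and 1 for *SOX1* and 3 and 7 for *FOXA2*.

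The pluripotency factors that both states share did not move together. Of 6, *NANOG* was called higher in naïve hESCs (log2 fold change 1.62, SE 0.147), 4 were called higher in primed hESCs and *POU5F1* was not called (0.05, SE 0.143). *SOX2* had 659 and 828 naïve against 4130 and 5430 primed counts (log2 fold change -2.38, SE 0.156, edgeR adjusted p = 1.58e-17), and *LIN28A* had a log2 fold change of -2.11 (SE 0.150). The naïve markers *DPPA3*, *DPPA5* and *DNMT3L* had log2 fold changes of 9.10, 8.72 and 10.69. Of 26 family relatives of the 10 genes, 18 were tested, 13 were called higher in naïve hESCs, 4 higher in primed hESCs and 1 was not called, with a median log2 fold change of 1.43. Of these relatives, *KRT8*, *KRT18*, *KRT19*, *TFAP2B*, *GATA4* and *GATA6* are also counted in other lists above.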

How the data were processed

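The 10 genes and the gene lists were chosen with earlier results of these data known. The authors deposited, for each of the 4 libraries, raw counts of minimap2 alignments on the 244825 transcripts of Ensembl release 105 (GRCh38), made with featureCounts 2.0.0 per the file headers. Whole transcript spans were counted without regard to strand, an alignment was counted for every transcript it overlapped, and, with the option -M of the recorded command, at every place it aligned. Replicates were not pooled. Counting over spans adds intronic and antisense alignments to a gene.

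Gene symbols came from GENCODE release 44 through the transcript identifiers. Of the transcripts, 242542 were matched, 97.9% with the same position, and the 2283 others, with 1.0% of the counts, were left out. Each gene took the count of its transcript with the largest mean count. A gene was tested if 2 or more libraries had 10 counts or more. The two-sided test was made with edgeR 4.0.16 (R 4.3.3, TMM, quasi-likelihood functions glmQLFit and glmQLFTest, state as the only term), with a call at a Benjamini-Hochberg adjusted p under 0.05 over all genes tested. Isoform usage was tested with diffSpliceDGE. Both tests were also run on simulated counts, the isoform test there without the fraction threshold. DESeq2 1.42.0 was an alternative. Ratios have exact 95% conditional Poisson intervals and shares have Wilson intervals, and both cover counting error only. No library was a duplicate of its replicate, since the chi-square per degree of freedom between replicates was 15.2 in the naïve and 8.89 in the primed state. Python 3.11.15 with pandas 2.3.3 was used for tables.

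The alternatives were library size, DESeq2, no count filter, at least 50 counts, the replicate number as a block, counts summed over transcripts, transcripts that overlap no other gene, a log2 fold change beyond 1, isoform fractions without length or threshold, identical isoforms collapsed, and each library left out in turn. Beside the 10 genes, the up to 4 genes (3 for pluripotency and state lists) with the largest fitted change, which depends on the prior count where a state has 0 counts, among those called with a mean count of at least 50 were named per list, and genes inside a span with at least 10% of the count of the gene. Other named genes were chosen after their values were seen. A planned alignment of paralogous proteins was not run.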

Additional observations from a re-analysis of the deposited data

How the results depend on the processing

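For the 9 genes tested, the values under the alternatives kept their direction and side of the threshold, except for 4 of *KRT7* that passed it newly, and 0 were reversed. The number called higher in naïve hESCs was 8 throughout except with at least 50 counts, where it was 5 because *ELF5*, *HAND1* and *TP63* were not tested. The number called higher in primed hESCs was 1 with library size, summed transcripts or transcripts overlapping no other gene, and 0 to 1 with a library left out (1 without naïve replicate 2). With library size, 2 of the other trophoblast factors were called higher in primed hESCs and *TEAD4* reversed to -0.13 and *KLF17* to -0.23. Of the trophoblast markers, 2 were called higher in primed hESCs with library size, at least 50 counts, the replicate block or transcripts overlapping no other gene, and 1 to 2 with a library left out (2 without naïve replicate 2). Over all genes, 4503 were called higher in naïve and 15540 in primed hESCs with library size, and 5120 higher in naïve hESCs with a log2 fold change beyond 1. Over all isoforms, 6809 were called without the fraction threshold and 493 to 557 with a library left out. With a library left out, the lone library of a state was assumed to vary like those of the other. All *TP63* and *VGLL1* transcripts overlap another gene, so for these genes the alternative without overlaps kept the main counts.

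The replicate numbers are shared by the states, but nothing says that they pair the libraries, and the deviations of same-numbered libraries correlated at 0.0593. With the replicate number as a block, 19689 genes were called against 19334, the 8 of the 10 genes among them. Depth limits *CDX2*, *HAND1* and *ELF5*, whose primed counts were at or under 3, and the long and short forms of *TP63*. With 2 libraries per state, the spread within a state rests on 1 difference.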
